A study of Rattus norvegicus with 6 samples.

Results

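The miRNAs of the Dlk1-Dio3 imprinted region were followed in rat left ventricle through 54 TaqMan assays, out of 584 miRNA assays in the series. Members were taken by name from a list chosen with earlier results of these data known. Of its 57 miRNA names of the region, 48 had an assay without a star. The other 9 had no such assay and were not analysed here (miR-299, miR-337 without an arm, miR-341, miR-412, miR-485-3p, miR-485-5p, miR-541, miR-666-3p and miR-770-5p). Some names had both a mouse and a rat assay, and each assay was kept apart. The study compared 3 hearts of OLETF rats, an inbred strain that becomes obese and develops type 2 diabetes, with 3 hearts of LETO rats, the lean strain labelled as its healthy control. No treatment, age or sex was given in the labels used here, and all diabetic hearts were OLETF, so diabetes, obesity and strain cannot be told apart. Each sample was left ventricular tissue, frozen after excision under anaesthesia and ventilation. Nothing in the labels says that the hearts came from separate litters or days, so a p-value measures only the spread between these samples.

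The region lies between Dlk1 and Dio3. On the maternal chromosome it is transcribed into long noncoding RNAs, among them Meg3, and its miRNAs are cut from those transcripts, while the paternal chromosome expresses protein genes such as Dlk1, Rtl1 and Dio3. A first group of miRNAs lies antisense to Rtl1, a gene derived from a retrotransposon, and a second, dense group follows downstream. Together they make up one of the largest miRNA clusters of mammals, known for strong expression in embryo, placenta and brain and for low expression in most adult tissues.

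In the GRCr8 assembly as listed by RefSeq, the hairpins measured here began with Mir770 at chr6:134298084 on the plus strand, inside Meg3, and ended with Mir410 at chr6:134579838. The first group, from Mir770 to Mir370, spanned 56.5 kb, and the second, from Mir379 to Mir410, spanned 36.4 kb, with 189.0 kb between them. RefSeq gave a mature rat sequence for 47 of the 48 names, all on the plus strand, and miR-136 had no entry for the measured arm. For 17 names the assay label gave the arm, for 5 the table held a single entry, and for 25 the arm that carried the unsuffixed name in older nomenclature was taken.

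The sequences below are those of the 4 members on which the comparison of strains turned, miR-411, miR-434-3p, miR-539 and miR-409-3p, and of miR-127, miR-494 and miR-667, which were added after their values were seen because they were measured in 2 hearts of a group. They are shown to let each Ct be tied to a molecule. Capitals mark the seed, bases 2 to 8, which pairs with target mRNAs. All 7 assays carried a mouse name, while the sequences are the rat entries.
miR-127: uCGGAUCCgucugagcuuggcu
miR-434-3p: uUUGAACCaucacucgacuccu
miR-411: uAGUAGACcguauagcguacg
miR-494: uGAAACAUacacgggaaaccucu
miR-667: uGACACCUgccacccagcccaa
miR-539: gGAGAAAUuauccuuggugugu
miR-409-3p: aAUGUUGCucggugaacccc

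No seed was shared: the 46 distinct mature sequences of the members had 46 distinct seeds. Among related members were the miR-376 miRNAs, known as substrates of A-to-I RNA editing, whose 3p arms were also added after the values were seen, because the 3 assays differed in detection in the same hearts.
miR-376a: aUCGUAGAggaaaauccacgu
miR-376b: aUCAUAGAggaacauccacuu
miR-376c: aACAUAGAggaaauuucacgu
Counted from the 5′ end, miR-376b differed from miR-376a by G4A, A13C and G20U, and miR-376c differed from miR-376a by U2A, G4A, A14U and C16U. The miR-376a assay gave a Ct in all 6 hearts, the miR-376c assay in 4 and the miR-376b assay in 0.

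The values were threshold cycles (Ct), the PCR cycle at which a well crosses the detection threshold, so abundant RNA crosses early and gives a low Ct. A step of 1 cycle is read as 1 log2 unit, on the assumption that product doubles at every cycle. A well that never crossed was deposited as undetermined. A miRNA was called determined in a heart where it had any Ct, all of them under 40, and measured where its mean Ct was under 35. A level is minus the difference between the Ct and the U6 snRNA Ct of the same card, in log2 units. Assays amplify with their own efficiency, so a Ct or level was compared between hearts and not between miRNAs.

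Across the array, LETO replicate 3 stood apart. Over the 162 assays measured in every heart its median Ct was 26.67, against 28.31 in OLETF replicate 3 and 29.35 to 29.92 in the other 4 hearts. Relative to U6 its median level was -8.78, that of OLETF replicate 3 was -10.13, and those of the other hearts lay between -12.63 and -10.91. The tissue label was borne out by the heart muscle markers miR-1, miR-133a, miR-133b, miR-208, miR-208b and miR-499, for which 7 of 7 assays were measured in all 6 hearts at Ct 16.6 to 33.6. Endothelial miR-126-3p and miR-126-5p and smooth muscle miR-143 and miR-145 were also measured in every heart, as were fibroblast miR-199a-3p and miR-214, while fibroblast miR-199a-5p was measured in 1 heart. Of the brain markers, miR-9 and miR-138 were measured in all hearts, miR-128a in 5, and miR-124 and miR-219 in 0. Leukocyte miR-223 and miR-142-3p and blood-rich miR-486 were measured in every heart, and miR-451 of red cells in 1.

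Most of the cluster assays were not measured in these hearts, though 25 of the 54 gave a Ct in at least 1 heart. No member was measured in all 6 hearts, and 40 of 54 assays (74.1%) were measured in none, against 162 of the 530 other miRNA assays in all hearts and 235 (44.3%) in none. Counted over assays and hearts together, 35 of 324 member values (10.8%) had a Ct under 35, against 40.6% of the values of the other assays. A Ct of any size was given by 83 member values (25.6%), against 51.3% for the others. On card A, which held 49 of the member assays, the shares measured were 11.9% for members and 46.8% for the others. The 5 member assays on card B were measured in 0 hearts. With later cycles admitted, 4 members were determined in all hearts, miR-376a, miR-434-3p, miR-494 and miR-667.

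Counted heart by heart, the LETO replicates 1, 2 and 3 had 4, 3 and 13 members measured, and the OLETF replicates 4, 3 and 8. Mean counts were 6.67 ± 5.51 for LETO hearts against 5.0 ± 2.65 for OLETF hearts (SD, n = 3 each), a difference of -1.67 members that was smaller than the spread within either strain. Counting any Ct, 11, 10 and 22 members were determined in the LETO hearts and 13, 11 and 16 in the OLETF hearts (14.3 ± 6.66 and 13.3 ± 2.52). The 2 hearts with most members, LETO replicate 3 and OLETF replicate 3, were also those with most of the other assays measured, 279 and 220, where the remaining hearts had 193 to 203. Without LETO replicate 3 the difference turned to 1.5 members more in OLETF, and within replicates 1 and 2 it was 0.0. The part of overall detection in the member counts was not tested.

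**Figure D1:**
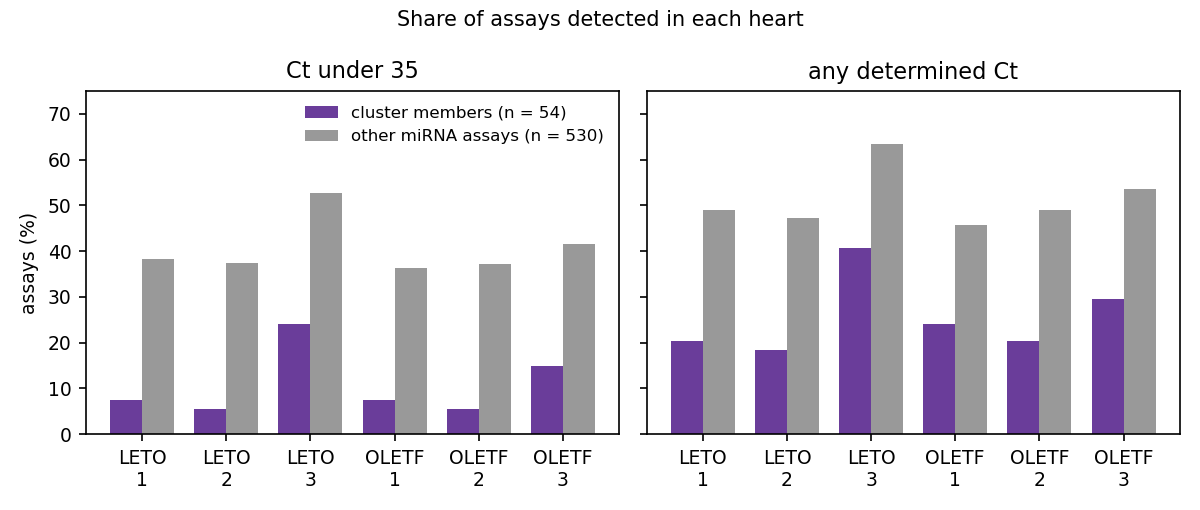
Share of assays (%) with a Ct under 35 (left) and with any determined Ct (right) in each heart, for the 54 cluster members (purple) and the 530 other miRNA assays (grey). Members lie below the other assays in each of the 6 hearts, at 5.56% to 24.1% against 36.4% to 52.6% on the left, and both series peak in LETO replicate 3.

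The late Ct of the cluster bears on how an undetermined well is read. On card A each member had a single well, so the repeatability of late wells was taken from the 150 miRNA assays with 2 wells per heart on card B. Where the lower of the 2 Ct values was under 30, the other well was undetermined in 0 of 85 pairs. It was undetermined in 1 of 38 pairs at 30 to 32, in 7 of 86 (8.14%) at 32 to 34, in 37 of 96 (38.5%) at 34 to 36 and in 48 of 69 (69.6%) at 36 to 40. Of the 83 determined member values, 5 lay under 32, 21 at 32 to 34, 21 at 34 to 36 and 36 at 36 to 40. A single undetermined well therefore does not show absence of a member whose other values lie near 35.

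**Figure D2:**
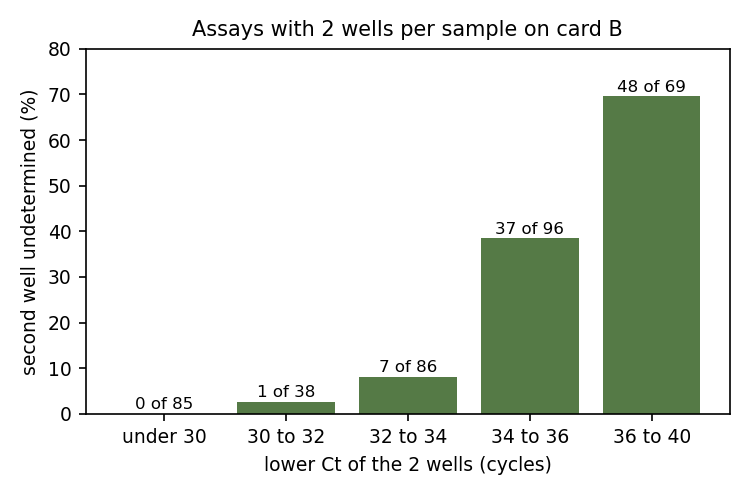
Share of pairs (%) in which the second well of an assay was undetermined, by the lower Ct of its 2 wells (cycles), over 150 miRNA assays with 2 wells on card B in all 6 hearts. The number over each bar gives the pairs concerned, rising from 0 of 85 under Ct 30 to 48 of 69 at 36 to 40.

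Detection by these assays was uneven along the chromosome. In the first group, all measured values came from the hairpins that lie within the bounds of Rtl1 (chr6:134325231-134335780), those of miR-431, miR-433, miR-127, miR-434 and miR-136. Of the 6 assays there, 6 were determined and 4 measured in at least 1 heart, with 10 of 36 values under Ct 35. Of the other 12 assays of the first group, among them miR-770-3p within Meg3, miR-337, miR-540, miR-665 and miR-370, 4 were determined and 0 measured in any heart. Neighbouring miRNAs share transcripts and are not independent, so this is a description without a test.

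In the second group, 15 of 36 assays were determined and 10 measured in at least 1 heart, and 25 of 216 values (11.6%) had a Ct under 35, against 10 of 108 (9.26%) in the first group. The measured members were spread from miR-379, at its start, to miR-410, at its end. In between, the assays of miR-668, miR-154, miR-496 and miR-377 covered 4 hairpins, neighbours among those assayed, with no determined value in any heart. A miRNA with a Ct often sat beside one without: miR-539, measured in every OLETF heart, lies between miR-487b and miR-544 in the order of assayed hairpins, of which the first reached 35.64 at its lowest and the second was undetermined in all hearts.

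Arms of one hairpin also differed in detection, each by its own assay. miR-434-3p was determined in 6 hearts and miR-434-5p in 1, OLETF replicate 3, at Ct 35.07. miR-409-3p was determined in 5 hearts and miR-409-5p in 0 by either its mouse or its rat assay. Mouse and rat assays of one name gave the same answer for miR-377, miR-381, miR-543 and miR-758, which were undetermined in all hearts by both. For miR-493 the mouse assay gave no Ct, and the rat assay on card B gave 35.32 in LETO replicate 1, 38.55 in LETO replicate 3 and 37.78 in OLETF replicate 2, each from 1 of 2 wells.

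**Figure D3:**
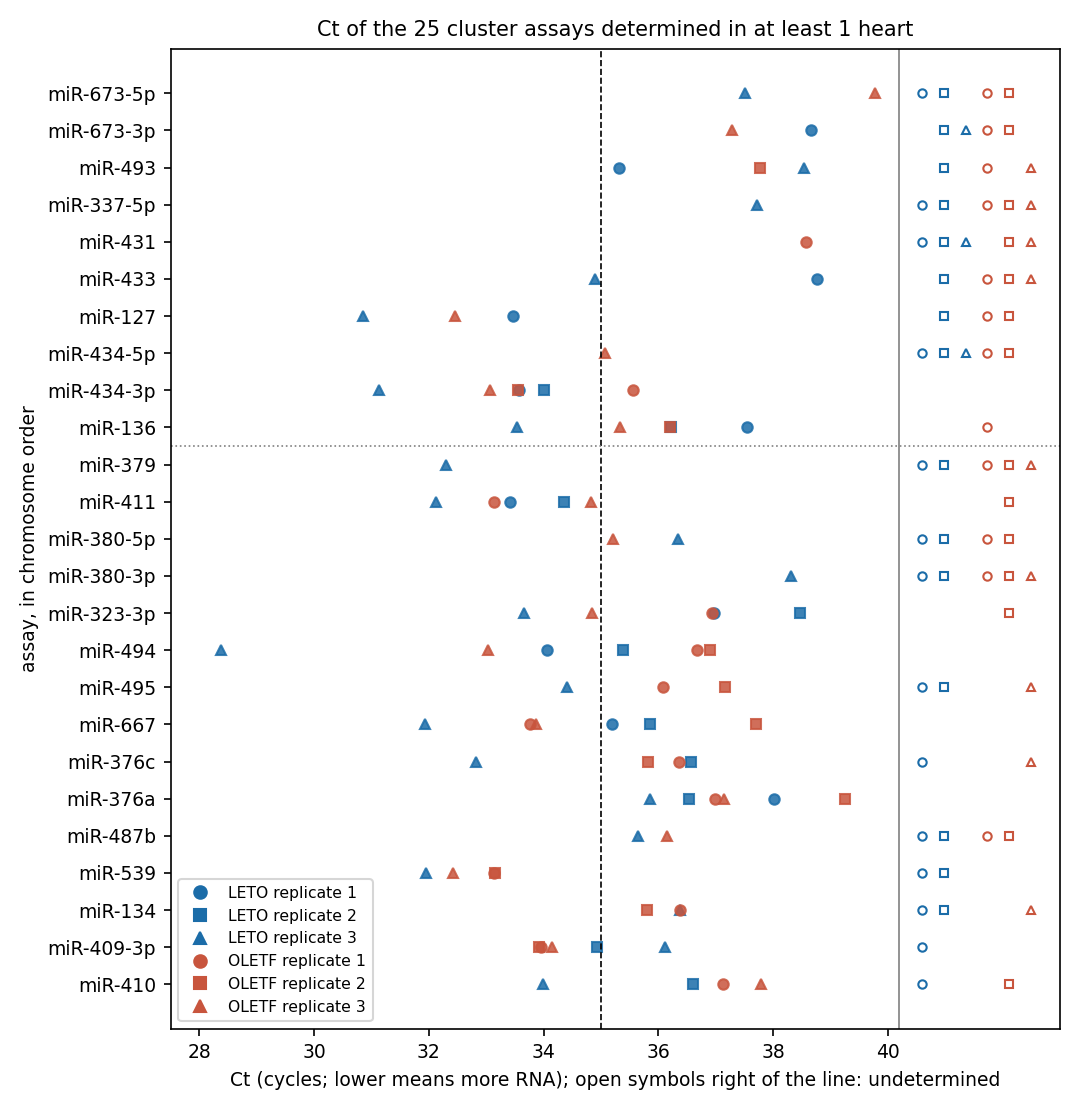
Ct (cycles, lower means more RNA) of the 25 member assays determined in at least 1 heart, in chromosome order from top to bottom. Blue symbols are LETO and red symbols OLETF, the shape gives the replicate, open symbols at the right are undetermined wells, the dashed line is the limit of 35, and the dotted line separates the first from the second group. Of the 83 values 5 lie left of Ct 32, and miR-494 in LETO replicate 3 is the lowest at 28.38.

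Among the Rtl1-antisense miRNAs, miR-127, which is perfectly complementary to the Rtl1 transcript, had a Ct of 33.46 in LETO replicate 1, 30.86 in LETO replicate 3 and 32.46 in OLETF replicate 3, and was undetermined in LETO replicate 2 and in OLETF replicates 1 and 2. It was thus measured in 2 LETO hearts and 1 OLETF heart, with Ct values well inside the range where paired wells mostly repeated. Its levels of -14.26 and -12.97 in LETO and -14.24 in OLETF left no separation of the strains among the hearts that gave a value.

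miR-434-3p had Ct values of 33.58, 34 and 31.13 in the LETO hearts, in the order of their replicate numbers, and of 35.56, 33.56 and 33.07 in OLETF. Relative to U6 these were levels of -14.38, -16.54 and -13.24 in LETO and -17.92, -15.62 and -14.85 in OLETF. LETO replicate 3 was highest and OLETF replicate 1 lowest, and the strains overlapped. With OLETF replicate 1 above the limit and left out, the fit across all assays gave a difference of -0.51 log2 units (SE 1.54, limma adjusted p = 0.997, 3 LETO and 2 OLETF hearts). That difference turned to 0.23 without LETO replicate 3 and was -1.42 without LETO replicate 2. With no limit, the mean levels over 6 hearts were -14.72 ± 1.68 and -16.13 ± 1.60 (SD, n = 3 each), which differed by -1.41 (two-sided exact permutation p = 0.4). Such tests were run for the 4 members determined in all hearts, and 3 hearts against 3 allow no p below 0.1.

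miR-136 gave Ct values of 37.55, 36.22 and 33.54 in LETO and of 36.21 and 35.33 in OLETF replicates 2 and 3, so it was measured in LETO replicate 3 alone. miR-433, which has been studied in cardiac fibrosis, was measured in that heart at 34.89, determined in LETO replicate 1 at 38.76 and undetermined in the 4 others. miR-431 had a Ct in OLETF replicate 1 only, at 38.57. For these 3 miRNAs all values but those of LETO replicate 3 lay above the limit.

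In the second group, miR-411, which shares a hairpin with miR-411*, was measured in 5 hearts. Its Ct was 33.42, 34.35 and 32.12 in LETO, and 33.13 and 34.83 in OLETF replicates 1 and 3, with OLETF replicate 2 undetermined. Its levels were -14.21, -16.89 and -14.23 in LETO and -15.48 and -16.60 in OLETF, so that both OLETF values lay between the LETO extremes. The difference was -0.93 log2 units (SE 1.54, limma adjusted p = 0.997, 3 LETO and 2 OLETF hearts). It was -1.82 without LETO replicate 2, -0.48 without LETO replicate 1 and -0.49 without LETO replicate 3. miR-379, whose hairpin precedes that of miR-411 among those assayed, was measured in LETO replicate 3 at Ct 32.3 and undetermined in the other 5 hearts.

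miR-494, studied for its effect on ischaemic injury of the heart, had the widest range of level among the 4 members determined in all hearts. Its Ct was 34.06, 35.39 and 28.38 in LETO and 36.68, 36.91 and 33.03 in OLETF. The levels were -14.86, -17.93 and -10.49 in LETO and -19.04, -18.97 and -14.81 in OLETF. LETO replicate 3 was highest, OLETF replicate 3 came next, and OLETF replicates 1 and 2 were lowest, so the strains overlapped. The means were -14.42 ± 3.74 and -17.60 ± 2.42 (SD, n = 3 each), a difference of -3.18 (exact permutation p = 0.3, lower in OLETF in 7 of 9 pairs of hearts). Without LETO replicate 3 the difference was -1.21. Relative to the other small RNA controls the difference was -2.33 and every OLETF heart lay below every LETO heart, which held for 1 of 255 assays of card A (0.392%). The hearts overlapped for miR-494 relative to the array median and the card A median, under which that order held for 9 (3.53%) and 18 (7.06%) of the 255 assays.

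LETO replicate 3 stood further from the other hearts in miR-494 than in most assays. Over the 206 assays determined in all hearts, its level lay a median of 2.88 log2 units above the mean of the other 5 hearts. For miR-494 the excess was 6.63, rank 2 of 206. The other 3 members determined in every heart stood closer to that median, miR-667 at 3.13 (rank 81), miR-434-3p at 2.62 (rank 125) and miR-376a at 1.54 (rank 175). This concerns a single heart and has no replicate.

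**Figure D4:**
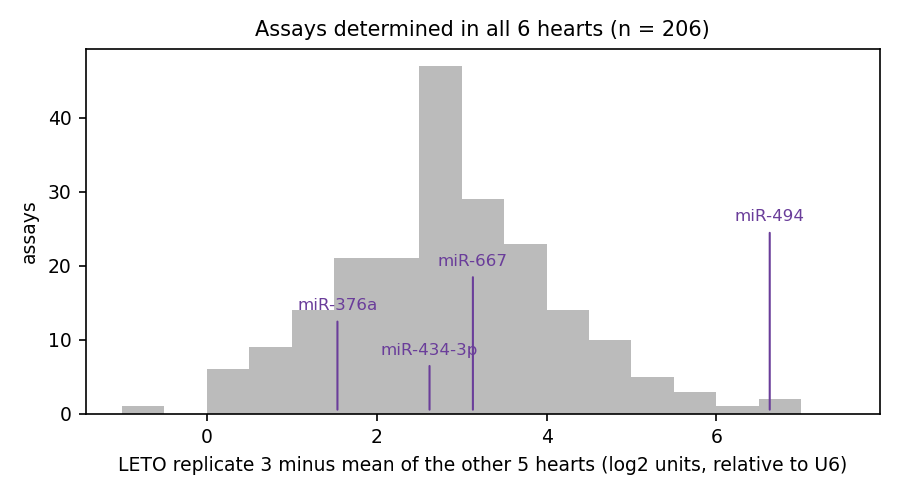
Number of assays by the level in LETO replicate 3 minus the mean of the other 5 hearts (log2 units, relative to U6), over the 206 assays determined in all 6 hearts; vertical lines mark the 4 members among them. miR-494 stands at the right edge at 6.63, miR-434-3p and miR-667 lie at 2.62 and 3.13, near the median of 2.88, and miR-376a lies below it at 1.54.

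miR-667 had Ct values of 35.20, 35.85 and 31.94 in LETO and 33.77, 37.70 and 33.87 in OLETF. Its levels were -16.00, -18.39 and -14.05 in LETO and -16.13, -19.76 and -15.65 in OLETF, with the strains interleaved. The means of -16.15 ± 2.17 and -17.18 ± 2.25 differed by -1.03 (SD, n = 3 each, exact permutation p = 0.6), and without LETO replicate 3 by 0.02. miR-376a was late in every heart, with Ct values of 38.02, 36.54 and 35.85 in LETO and 36.99, 39.25 and 37.15 in OLETF (difference in level -1.25, exact permutation p = 0.2).

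Of the 54 member assays, 3 were measured in more OLETF than LETO hearts, miR-539, miR-409-3p and miR-667. Another 10 were measured in more LETO than OLETF hearts, 6 of these in LETO replicate 3 alone (miR-136, miR-376c, miR-379, miR-410, miR-433 and miR-495). Among the 530 other assays, 25 were measured in more OLETF and 83 in more LETO hearts, and 44 in LETO replicate 3 alone. The members thus split between the strains much as the other assays did. miR-323-3p was measured in replicate 3 of both strains, at 33.66 in LETO and 34.85 in OLETF.

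miR-539, reported elsewhere as a regulator of O-GlcNAcase in the failing heart, was measured in all OLETF hearts, at Ct 33.13, 33.16 and 32.42. In LETO it was measured in replicate 3 at 31.96 and undetermined in replicates 1 and 2. The levels were -15.49, -15.22 and -14.20 in OLETF and -14.07 in LETO replicate 3. The one LETO heart with a value thus lay above all OLETF hearts relative to U6, and the other LETO hearts gave no value. Relative to the median of the array, to the median of card A or to the other small RNA controls, that LETO heart lay below every OLETF heart. With undetermined hearts counted as lowest, every OLETF heart lay above every LETO heart for 14 (5.49%), 7 (2.75%) and 5 (1.96%) of 255 card A assays under these references, in that order. No fold change is given, since 2 of 3 LETO hearts were undetermined.

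miR-409-3p had Ct values of 33.95, 33.92 and 34.14 in OLETF, and of 34.94 and 36.11 in LETO replicates 2 and 3, with LETO replicate 1 undetermined. The levels were -16.31, -15.98 and -15.92 in OLETF and -17.48 and -18.22 in LETO. With an undetermined heart counted as lowest, every OLETF heart therefore lay above every LETO heart. This held for 2 of the 390 miRNA assays determined in at least 1 heart (0.513%), miR-409-3p being 1 of 25 members so determined and miR-187 the other assay. The reverse order held for 4 of 390 (1.03%) and for 0 members. Over the hearts with a Ct the difference was 1.78 log2 units (SE 1.62, limma without a Ct limit, adjusted p = 0.992, 2 LETO and 3 OLETF hearts).

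The separation of miR-409-3p rested on the U6 reference. Relative to the array median, the card A median and the other small RNA controls the difference was 2.32, 2.15 and 2.66, in the same direction, but the hearts overlapped under each of them. LETO replicate 3, the heart with the lowest Ct over the array, had the latest determined Ct for miR-409-3p. The LETO values were late, at 34.94 and 36.11. Card B pairs whose lower Ct lay in those ranges had the other well undetermined in 38.5% and 69.6% of cases. miR-409-3p had a single well per heart on card A, so these are not its own rates.

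**Figure D5:**
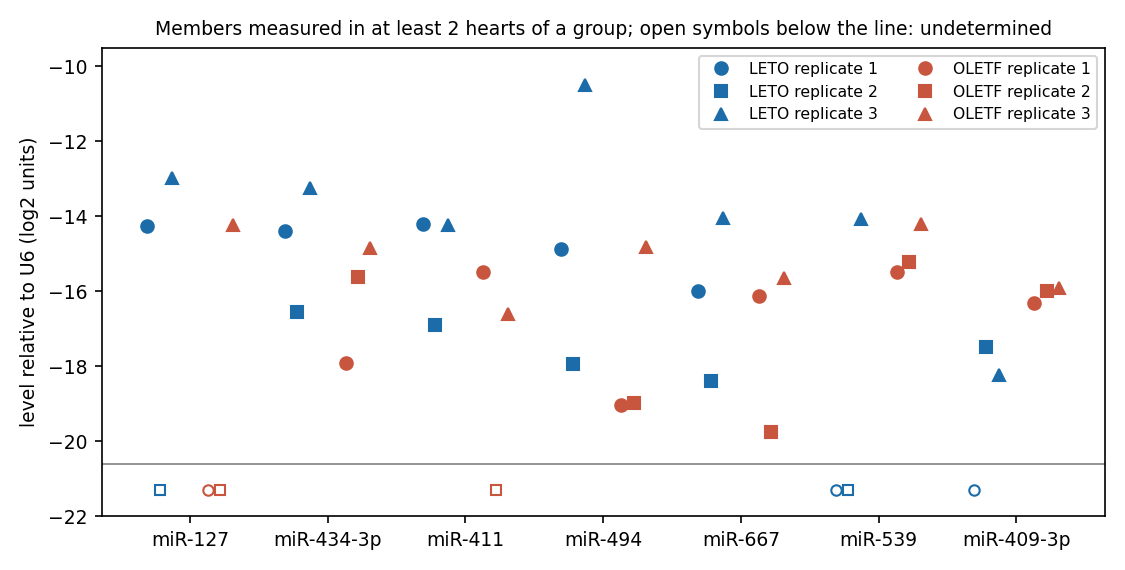
Level relative to U6 (log2 units) of the 7 members measured in at least 2 hearts of a strain, with 1 point per heart, LETO in blue and OLETF in red; open symbols under the grey line are undetermined wells. With undetermined hearts counted as lowest, the strains overlap for each miRNA except miR-409-3p, whose OLETF values of -16.31 to -15.92 lie above the LETO values of -17.48 and -18.22.

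Across strains, no member passed. With a Ct limit of 35, 2 members could be tested among 193 assays, and 0 of 2 members and 0 of 193 assays (0.0%) reached an adjusted p under 0.05 (limma; 2 of 193 at an unadjusted p under 0.05, 0 of them members). The median difference was -0.72 log2 units for the 2 members and -0.60 for all assays tested. Without a Ct limit, 10 members could be tested, and 0 of 10 members and 0 of 255 assays (0.0%) passed (limma; 2 of 255 at an unadjusted p under 0.05, 0 of them members). miR-494 came nearest, at -3.18 (SE 1.59, limma unadjusted p = 0.051, adjusted p = 0.992).

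In that fit 8 of the 10 members lay lower in OLETF, with a median of -1.14 against -0.68 for all 255 assays. The 2 higher were miR-409-3p and miR-323-3p (0.23), and those lower included miR-410 (-1.91), miR-376c (-1.28) and miR-136 (-0.10). The number lower was 7 relative to the array median, 8 relative to the card A median and 6 relative to the other small RNA controls, with miR-136 and miR-376c among those that turned. Without LETO replicate 3, 4 of the 7 members that could still be tested lay lower, with a median of -0.49 against 0.34 for all 222 assays (an alternative chosen after seeing the data). The members' median was below 0 in each of these settings, and its size and the count of members lower changed with that heart and the reference. How many of all assays lay lower was not counted, so the counts of members lower have no background beside them. The members share transcripts and are not independent.

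In the authors' deposited table of OLETF over LETO ratios, 4 of 59 member wells (6.78%) stood at 2 or above and 14 (23.7%) at 0.5 or below. Over all 734 miRNA wells of the authors' deposited table these shares were 4.36% and 28.1%. In the authors' deposited table the 4 high wells were miR-539 (18.0), miR-409-3p (6.79), miR-434-5p (2.63) and miR-134 (2.21), each undetermined in at least 1 heart, and the lowest were miR-494 (0.110), miR-127 (0.128), miR-411 (0.131) and miR-379 (0.142). An assay with no determined well in a heart entered the deposited normalized values as Ct 40, so that U6 alone moved its value there. Beside a determined well of the same assay, an undetermined well was not set to 40. The 27 member wells of card A undetermined in all hearts were all listed at 0.841 in the authors' deposited table. The 5 such wells of card B, where each member had 2 wells, were listed there at 0.705 to 0.985. For miR-411 the deposited normalized values gave a difference of -2.94 log2 units, against -0.93 with the undetermined OLETF heart left out.

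The passenger strands of the cluster, marked by a star in the assay names, were also mostly not measured. Of 15 such assays, 11 (73.3%) were measured in 0 hearts, a share near that of the members (74.1%), and 6.67% of their 90 values had a Ct under 35. miR-376b* was measured in LETO replicate 3 and OLETF replicates 2 and 3 at Ct 32.96, 34 and 34.18, although the miR-376b assay gave no Ct. miR-411* was measured in LETO replicate 1 alone at 33.13, and the rat miR-136* and the miR-376c* assays in LETO replicate 3 alone at 34.14 and 34.88. Among 6 assays of other imprinted loci, 0 were measured in every heart and 3 in none: miR-335-5p of Mest reached Ct 32.6 to 35.7, miR-296-5p of the Gnas region 31.2 to 37.1, and both miR-675 arms of H19 were undetermined throughout. Among the 530 miRNA assays outside the cluster, 235 (44.3%) were measured in none, so these 6 assays do not set the other imprinted loci apart.

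The member names undetermined in all 6 hearts by all their assays were miR-154, miR-300, miR-329, miR-337-3p, miR-369-3p, miR-369-5p, miR-370, miR-376b, miR-377, miR-381, miR-382, miR-409-5p, miR-496, miR-540-3p, miR-540-5p, miR-543, miR-544, miR-665, miR-666-5p, miR-668, miR-673 without an arm, miR-758 and miR-770-3p. Together with the mouse miR-493 assay and the second assays of names measured by both species, they made up 29 of the 54 assays. Others had late values above the limit, miR-134 at 35.81 to 36.38 in 3 hearts, miR-487b at 35.64 and 36.16, miR-380-5p at 35.22 and 36.35, miR-380-3p at 38.31, miR-337-5p at 37.72, miR-673-5p at 37.51 and 39.78, and miR-673-3p at 37.28 and 38.66. The rat miR-673 assay on card A was tied to the same mature sequence as the mouse miR-673-5p assay on card B. For that sequence the assays thus differed in detection. In bulk tissue, fewer cells that express a miRNA and less of it per cell cannot be told apart.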

How the data were processed

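Per the labels' protocols, RNA from each heart was purified with a miRNA isolation kit, copied with a stem-loop primer pool and amplified in a 7900HT instrument; the labels list SYBR Green as the dye. The deposited Ct table held 768 wells per heart in 2 blocks of 384 (cards A and B). The authors' normalized table held delta Ct, which is on a log2 scale and falls as RNA rises. Subtracting the average Ct of the card's 4 U6 wells gave the deposited values to within 3.75e-06. The third deposited table held linear ratios. Threshold settings are not given in the sources used here.

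Repeated wells of an assay entered as the mean over those with a Ct. Assays measured (Ct under 35) in at least 2 hearts of each strain were fitted with limma 3.58.1 (lmFit and eBayes, R 4.3.3), with p-values adjusted by Benjamini-Hochberg over all assays tested, after testing on simulated data. The simulated spread was fixed and not taken from these hearts. That test therefore does not show which changes could be called here. Single members were compared by exact permutation in SciPy 1.17.1. The rule named with values the members tested and those measured in at least 2 hearts of a strain, and by name those measured in 1 heart or never determined. Sequences followed for members tested or measured in all hearts of a strain. Values of other members were added after they were seen. Members, lists, tests and alternatives were chosen with earlier results of these data known.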

Additional observations from a re-analysis of the deposited data

How the results depend on the processing

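The count of 0 assays at adjusted p under 0.05 (limma; 2 of 193 at an unadjusted p under 0.05) became 1 with the replicate block and stayed at 0 in the other alternatives; the cause was not tested. That assay was miR-466d-3p, no member, and 0 members passed in every alternative that tested any, the replicate block included. Same-numbered hearts did not deviate together throughout (correlations -0.0879, 0.228 and 0.616), and were not treated as pairs. The share of member values measured was 1.54% with a Ct limit of 32, 22.8% with 38 and 25.6% without a limit, by construction. miR-434-3p turned to 0.23 without LETO replicate 3 (range -1.42 to 0.23 with 1 heart left out), while miR-411 was lower in OLETF in the alternatives that tested it, from -2.94 (deposited normalized table) to -0.48. No OLETF heart measured for either miRNA could be left out. miR-411 was not tested without OLETF replicate 1 or 3, and miR-434-3p was not tested without OLETF replicate 2 or 3. With 1 heart left out, the difference in members measured ran from -3.5 to 1.5 and in members determined from -3.17 to 2.83. A Ct limit of 32, assays measured in all 6 hearts and leaving out OLETF replicate 3 left 0 members to test. With a limit of 38, miR-494 had an unadjusted p of 0.0284 (limma adjusted p = 0.992). Late wells limit all of these values.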
